A study of Homo sapiens with 12 samples.

Results

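The genes of G2 phase and mitosis described here are 51 of the 64253 genes in the table. They were chosen by symbol from their known roles and not by how they changed, though with earlier results of these data known. All 51 were found once by symbol on the primary chromosomes and passed the filter on low counts in every comparison. RNA was sequenced from 2 human lines of non-small-cell lung carcinoma, of which H460 carries wild-type p53 and H1299 lacks p53. In each line the cells were transfected with siRNA against NGFR (siNGFR), the neurotrophin receptor that the study placed upstream of p53, or with control siRNA (siCont). The 4 groups of 3 libraries each were H460 siNGFR, H460 siCont, H1299 siNGFR and H1299 siCont, all grown in DMEM with fetal bovine serum and with no drug named for the sequenced cells. The labels call the 3 libraries of a group biological replicates of 1 line, so the p-values measure the spread between these transfected cultures.

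Entry into mitosis is driven by CDK1 bound to cyclin A or cyclin B, held back by WEE1 and released by the CDC25 phosphatases. The genes that act there rise late in the cell cycle under the transcription factors B-MYB (MYBL2) and FOXM1, and many carry a cell cycle genes homology region (CHR) and CCAAT boxes just before the start of transcription. The DREAM complex, which forms when p53 induces p21, the product of CDKN1A, represses promoters of this kind through the CHR. The anaphase-promoting complex with CDC20 and UBE2C then destroys cyclin B and securin (PTTG1), which frees separase (ESPL1) to part the chromatids. In bulk RNA such as this, fewer cells in G2 or mitosis and less RNA of these genes per cell cannot be told apart.

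The promoters are shown first because the genes share these 2 motifs. No motif was searched to choose the members, but many genes of this kind are known to carry them, so their excess is no independent finding. The RefSeq table (GRCh38.p14), which gives 250 bases before to 50 after each start, held 51 promoters of 41 of the 51 genes. A CHR was searched as TTTGAA on either strand or as TTTAAA, which reads the same on both, and a CCAAT box as CCAAT on either strand, with overlaps between motifs allowed. A CHR was found in 39 of the 51 promoters (76.5%), against 24.0% of the 35116 promoters in the table. A CCAAT box was found in 37 (72.5%), against 34.6% of the table, and both motifs in 30 (58.8%), against 9.27%. At least 2 CCAAT boxes were found in 20 promoters (39.2%), against 10.8% of the table. A match is a description of letters and not evidence of binding. Below are the 120 bases before the start for 9 genes, 5′ to 3′, with CHR and CCAAT letters in capitals on whichever strand they read. PTTG1, MKI67, NCAPG, NCAPH, PRC1 and MELK are shown because they had the 6 lowest p-values in H460 among the members with a promoter in the table, CCNB1, CCNB2 and CDC20 because they encode the B cyclins and the activator that ends their activity.
PTTG1, chr5:160421735-160421854, plus strand: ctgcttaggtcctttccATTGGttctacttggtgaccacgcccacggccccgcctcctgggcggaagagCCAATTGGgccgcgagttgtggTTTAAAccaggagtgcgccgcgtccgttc
MKI67, chr10:128126424-128126543, minus strand: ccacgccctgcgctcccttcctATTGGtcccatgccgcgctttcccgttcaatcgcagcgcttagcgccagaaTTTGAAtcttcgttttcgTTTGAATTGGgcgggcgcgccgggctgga
NCAPG, chr4:17810859-17810978, plus strand: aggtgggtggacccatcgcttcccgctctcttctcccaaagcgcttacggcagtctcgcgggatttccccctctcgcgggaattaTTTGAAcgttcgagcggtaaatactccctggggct
NCAPH, chr2:96335646-96335765, plus strand: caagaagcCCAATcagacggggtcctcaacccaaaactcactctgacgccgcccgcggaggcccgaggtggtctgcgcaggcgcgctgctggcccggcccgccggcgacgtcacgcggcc
PRC1, chr15:90994536-90994655, minus strand: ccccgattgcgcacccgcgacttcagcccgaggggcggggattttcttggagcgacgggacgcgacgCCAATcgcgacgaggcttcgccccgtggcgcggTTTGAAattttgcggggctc
CCNB1, chr5:69167030-69167149, plus strand: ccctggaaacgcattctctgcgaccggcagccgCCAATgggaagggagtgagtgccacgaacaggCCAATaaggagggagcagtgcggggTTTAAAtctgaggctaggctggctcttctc
CCNB2, chr15:59105026-59105145, plus strand: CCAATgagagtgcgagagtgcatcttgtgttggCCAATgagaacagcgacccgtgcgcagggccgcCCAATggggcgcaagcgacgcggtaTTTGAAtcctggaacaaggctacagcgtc
CDC20, chr1:43358861-43358980, plus strand: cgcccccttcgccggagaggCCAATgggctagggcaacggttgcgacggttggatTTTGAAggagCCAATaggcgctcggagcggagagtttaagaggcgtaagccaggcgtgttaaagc
MELK, chr9:36572775-36572894, plus strand: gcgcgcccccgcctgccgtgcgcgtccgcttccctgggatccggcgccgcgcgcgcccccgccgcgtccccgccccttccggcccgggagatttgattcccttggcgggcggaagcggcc
In CCNB2, 3 CCAAT boxes stood 33 bases apart, and the last lay 25 bases before the first base of the CHR. In CCNB1, 2 boxes stood 32 bases apart, and the last again lay 25 bases before the CHR. PRC1 had a single box 33 bases before its CHR. In PTTG1 a pair of boxes on opposite strands shared letters, and in MKI67 the second CHR shared a letter with a reversed CCAAT box. NCAPG showed a CHR and no CCAAT box in this stretch, NCAPH a CCAAT box and no CHR, and MELK neither.

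The libraries held 16672164 to 36116823 counts, and short genes, with exons of under 400 bases in sum, made up 50.5% to 55.6% in H460 siNGFR, 43.1% to 48.2% in H460 siCont, 41.7% to 50.6% in H1299 siNGFR and 48.7% to 53.7% in H1299 siCont. Levels are therefore given as CPM, counts relative to a library size scaled by TMM so that most genes keep the same level. Without it the median log2 fold change of all genes in H460 was -0.32, in H1299 0.18. NGFR had 0 to 6 counts per library, so its knockdown could not be checked. CDKN1A stood at 88.0 to 110 CPM in H460 siNGFR, against 36.07 to 41.2 CPM in H460 siCont. In H1299 it had 6.76, 7.81 and 14.5 CPM in siNGFR libraries 1, 2 and 3, against 20.8, 20.6 and 19.4 CPM in siCont. Of the carcinoma markers, KRT8 and KRT18 were high in all libraries, KRT19 in H460 alone, while EPCAM and CDH1 were at or near 0. The summed markers of leukocytes reached at most 14.5 CPM, nearly all from CD68, and those of endothelium stayed under 1 CPM, while fibroblast markers summed to 28.3 to 34.0 CPM in H460 siNGFR and 23.6 to 26.7 CPM in H460 siCont, nearly all from COL3A1. H1299 siNGFR library 3 stood apart: on the first principal component of its line (71.4% of the variance) it lay at -15.4, with the siCont libraries at -41.3 to -18.8, while libraries 1 and 2 lay at 48.2 and 55.4. The counts and medians over the members in H1299 are therefore also given without it. The H460 libraries carry the numbers 4, 5 and 6 of their columns. On the first component of H460 (38.7% of the variance) siNGFR library 4 was also unlike its group, at 8.44. Libraries 5 and 6 lay there at 24.6 and 27.3, and the siCont libraries at -24.8 to -16.9.

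In H460, nearly all of the 51 genes stood slightly below their siCont level after siNGFR, and few passed the test. The log2 fold change was below 0 for 48, against 49.3% of the 19837 genes tested, and its median was -0.25, against 0.01 for all genes tested. In 23 of the 51 genes the 3 siNGFR libraries all lay below the 3 siCont libraries (13.7% of all genes), and in none did they all lie above (10%). By edgeR's quasi-likelihood test with Benjamini-Hochberg adjustment, 2 genes fell, UBE2C and FOXM1 (2.5% of all genes fell), and none rose (1.81% of all genes rose). DESeq2 called 4 lower (2.47% of all genes) and none higher (2.24%). By edgeR 21 genes were lower at an unadjusted p under 0.05 (9.82% of all genes) and none higher (9.42%). The summed level of the 51 genes was 1855, 1736 and 1647 CPM in siNGFR libraries 4, 5 and 6, against 2023, 2059 and 1981 CPM in siCont. Scaled by library size alone, 35 genes fell (21.2% of all genes did) and none rose (0.781%), with a median of -0.57, against -0.32 for all genes.

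**Figure D1:**
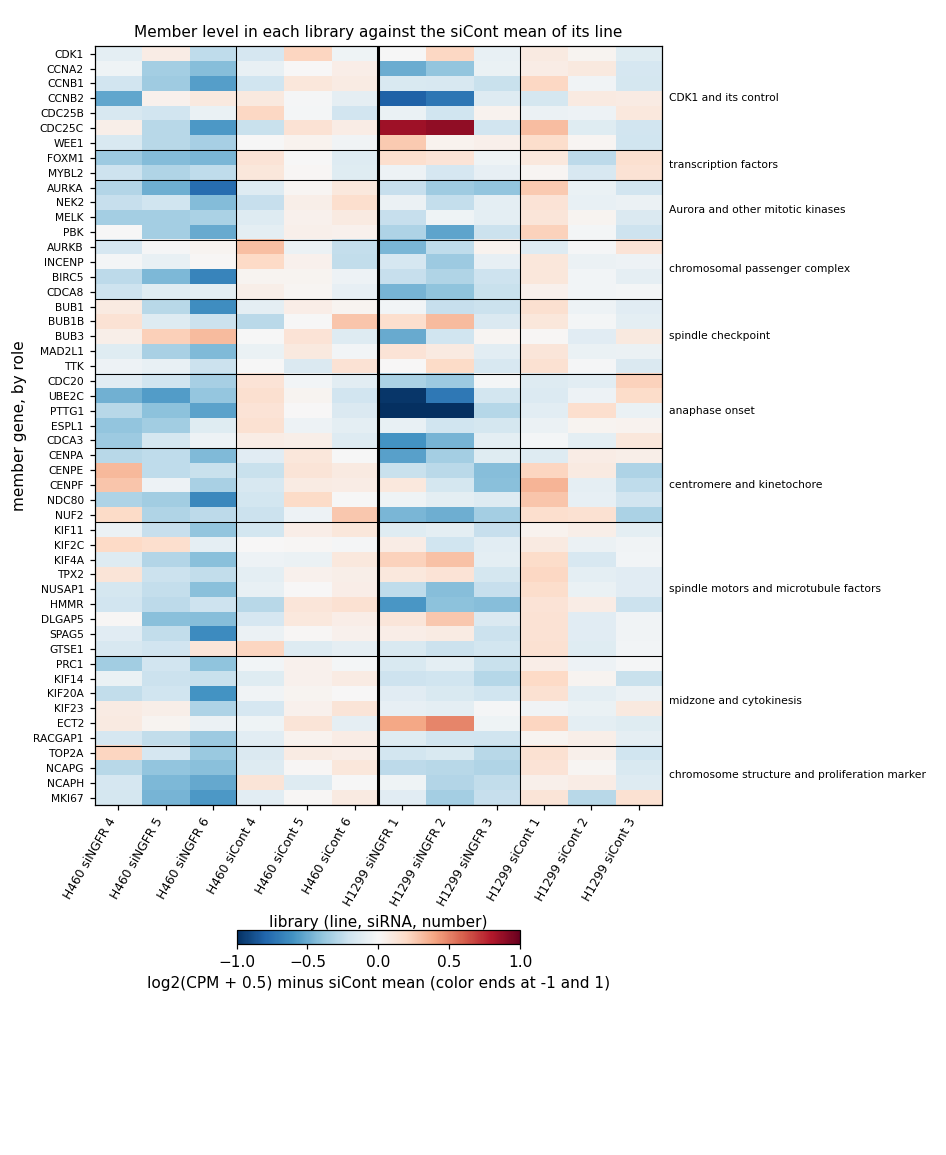
Level of each of the 51 genes (rows, by role) in each library (columns), as log2(CPM + 0.5) minus the siCont mean of the same line, with red higher and blue lower. The H460 siNGFR columns are blue in most rows, and in H1299 siNGFR libraries 1 and 2 PTTG1, UBE2C and CCNB2 stand out in blue and CDC25C in red.

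UBE2C, the ubiquitin-conjugating enzyme of the anaphase-promoting complex (chr20:45812576-45816957, plus strand, GRCh38), had 19.1, 18.1 and 20.4 CPM in H460 siNGFR, against 30.1, 27.5 and 23.5 CPM in siCont. The groups did not overlap, and the log2 fold change was -0.47 ± 0.12 (SE; edgeR quasi-likelihood adjusted p = 0.0386). FOXM1, the forkhead factor of the G2/M program (chr12:2857681-2877155, minus strand), had 54.4, 52.1 and 51.2 CPM in siNGFR, against 77.3, 70.1 and 64.2 CPM in siCont, a log2 fold change of -0.41 ± 0.11 (SE; edgeR adjusted p = 0.0488). All 3 siNGFR libraries lay below siCont. Both calls sat close to the threshold. RLE factors in place of TMM left 1 of the 51 genes called, UBE2C (463 of all 19837 genes fell). One fit of all 12 libraries left 0 (266 of 21583 fell). Leaving out 1 library at a time left 7 genes called without siNGFR library 4, 1 without siCont library 6 and 0 without any of the other 4. The 7 were AURKA, BIRC5, MKI67, NCAPH, PTTG1, UBE2C and FOXM1. Of all genes, 680 of 20439 fell without siNGFR library 4 and 280 of 20060 without siCont library 6. In the other 4 fits, with 0 members called, 111 to 331 of all genes fell. The members' counts did not strictly follow the number called over all genes.

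AURKA, the kinase that matures centrosomes and builds the spindle (chr20:56369389-56392337, minus strand), had 30.3, 26.4 and 21.7 CPM in H460 siNGFR, against 34.0, 37.7 and 40.1 CPM in siCont. Its log2 fold change was the lowest of the 51 genes, at -0.50 ± 0.13 (SE), and its adjusted p by edgeR was 0.050, just outside the threshold. BIRC5 (survivin), the subunit that brings the chromosomal passenger complex to the centromere, had 94.2, 83.0 and 71.6 CPM in siNGFR, against 115, 115 and 109 CPM in siCont (log2 fold change -0.43 ± 0.12 SE, edgeR adjusted p = 0.0592). Both genes passed with DESeq2 in place of edgeR, at adjusted p = 0.0296 for AURKA and 0.0275 for BIRC5. The other 3 members of the passenger complex were closer to siCont: AURKB, its kinase, had a log2 fold change of -0.05 ± 0.13 (SE), and INCENP and CDCA8 had -0.02 and -0.13.

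**Figure D2:**
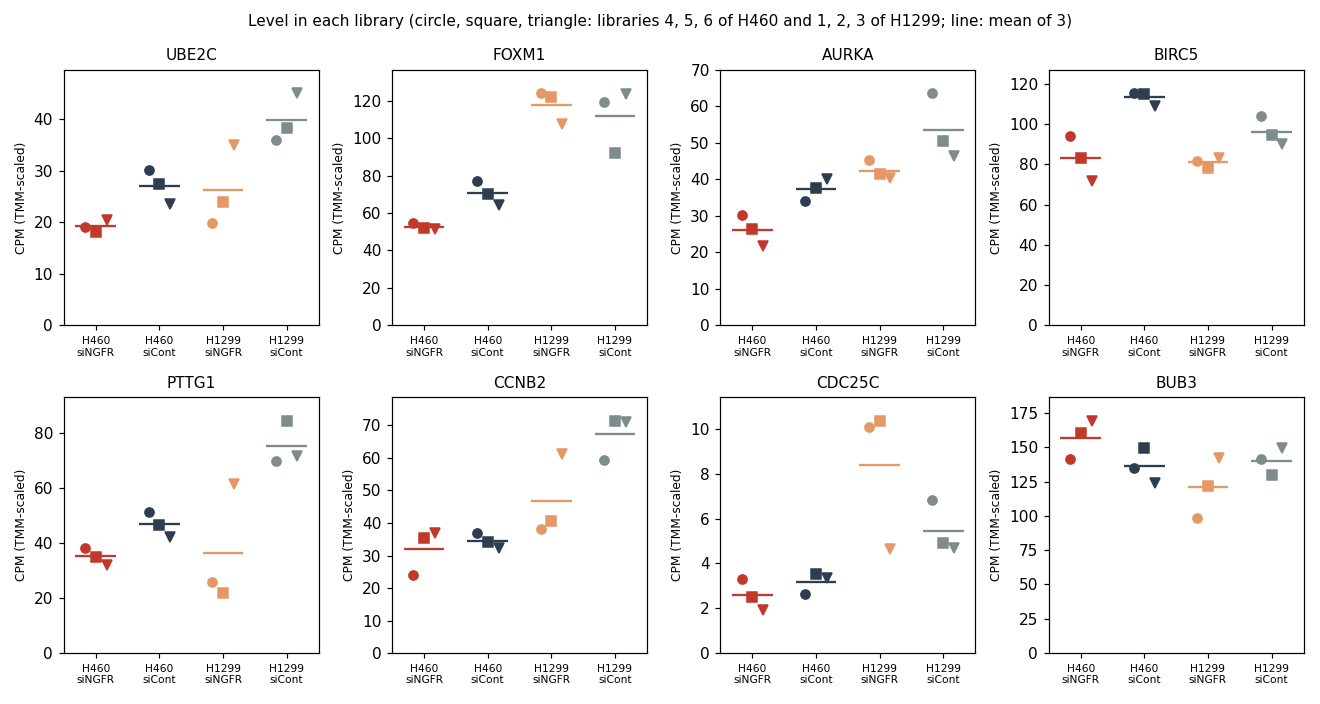
Level of 8 of the genes in each library, in TMM-scaled CPM on axes that start at 0, with 1 symbol per library and a line at each group mean (n = 3). In H460 the siNGFR libraries lie below the siCont libraries for UBE2C, FOXM1, AURKA, BIRC5 and PTTG1; in H1299 siNGFR library 3 (triangle) lies near the siCont libraries for PTTG1, CCNB2 and CDC25C.

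The 4 genes of anaphase onset, UBE2C, PTTG1, CDC20 and ESPL1, had log2 fold changes of -0.47 to -0.20 in H460, with no overlap between groups. CDCA3, a gene of entry into mitosis grouped with them, had -0.18, with overlap. Securin (PTTG1) had 38.3, 34.9 and 31.99 CPM in siNGFR, against 51.2, 46.6 and 42.1 CPM in siCont (log2 fold change -0.40 ± 0.11 SE, edgeR adjusted p = 0.0689). CDC20, which activates the anaphase-promoting complex, had 67.7, 63.8 and 58.1 CPM in siNGFR, against 80.5, 71.9 and 67.9 CPM in siCont, a log2 fold change of -0.20 ± 0.11 (SE). The 4 genes of chromosome structure and proliferation had -0.39 to -0.08. MKI67, which encodes the Ki-67 antigen, had 77.3, 63.4 and 58.7 CPM in siNGFR, against 81.4, 88.5 and 93.3 CPM in siCont, and the condensin subunits NCAPG and NCAPH had log2 fold changes of -0.37 ± 0.12 and -0.36 ± 0.12 (SE). All 3 had non-overlapping groups, yet edgeR adjusted p-values of 0.103 to 0.117. TOP2A, the decatenating topoisomerase, overlapped between groups, with 112, 85.7 and 74.7 CPM in siNGFR and 87.1, 102 and 101 CPM in siCont.

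The 7 genes of CDK1 and its control had log2 fold changes of -0.36 to -0.08 in H460 and none passed the test. CCNB1, the main mitotic cyclin, had 53.9, 48.3 and 42.0 CPM in siNGFR, against 53.8, 67.0 and 65.4 CPM in siCont, a log2 fold change of -0.36 ± 0.13 (SE). CDK1 itself had 20.2, 22.9 and 18.04 CPM in siNGFR, against 19.2, 25.1 and 21.0 CPM in siCont, and its value of -0.08 ± 0.13 (SE) was within the spread. The transcription factor MYBL2 had 98.3, 91.7 and 95.1 CPM in siNGFR, against 122, 114 and 104 CPM in siCont. Its groups did not overlap, at a log2 fold change of -0.24 ± 0.11 (SE; edgeR adjusted p = 0.241).

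In the remaining roles no gene passed the test in H460. The 4 kinases AURKA, MELK, NEK2 and PBK had log2 fold changes of -0.50 to -0.26, the 9 spindle motors and microtubule factors -0.30 to 0.12, and the 6 genes of the midzone and cytokinesis -0.32 to 0.03. Of the 5 centromere and kinetochore genes, NDC80, the core of the kinetochore's microtubule anchor, stood at 2.80, 2.72 and 2.12 CPM in siNGFR, against 3.09, 4.15 and 3.58 CPM in siCont. Its log2 fold change of -0.50 ± 0.20 (SE) rested on a mean of 76.7 counts per library, and the edgeR adjusted p was 0.186. The other 4 of that role had -0.33 to 0.00. Only 3 of the 51 genes had values above 0, namely the checkpoint protein BUB3 (0.22 ± 0.12), the microtubule depolymerase KIF2C (0.12 ± 0.11) and the exchange factor ECT2 (0.03 ± 0.11, all SE). BUB3, named with KIF2C and ECT2 after their values were seen, had 142, 161 and 169 CPM in siNGFR, against 135, 150 and 124 CPM in siCont, with overlap.

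In H1299, which lacks p53, the log2 fold change was below 0 for 40 of the 51 genes, against 49.9% of the 18925 genes tested. Its median was -0.18, against 0.00 for all genes. Scaled by library size alone, 25 genes were below 0, with a median of 0.00, against 0.18 for all genes. The sign thus depended on the scale, while the members' median stayed below that of all genes. By edgeR's quasi-likelihood test with Benjamini-Hochberg adjustment no member rose (0.0106% of all genes rose) and none fell (0.0106% fell). DESeq2 also called none (94 of 18925 genes lower and 81 higher). By edgeR 11 genes were lower at an unadjusted p under 0.05 (9.53% of all genes) and none higher (8.46%). In 16 genes all siNGFR libraries lay below all siCont libraries (10.1% of all genes), and in none above (10.7%). The summed level was 2171, 2143 and 2218 CPM in siNGFR libraries 1, 2 and 3, against 2610, 2378 and 2446 CPM in siCont.

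PTTG1 had the largest difference in H1299, with 25.7 and 21.9 CPM in siNGFR libraries 1 and 2 and 61.3 CPM in library 3, against 69.8, 84.3 and 71.5 CPM in siCont. Library 3 lay far from its group, and with it the log2 fold change was -1.05 ± 0.35 (SE; edgeR adjusted p = 0.261). UBE2C likewise had its highest siNGFR value in library 3, with 19.9, 23.9 and 34.9 CPM in siNGFR, against 36.0, 38.3 and 45.1 CPM in siCont (log2 fold change -0.60 ± 0.21 SE). CDC25C, a phosphatase that activates CDK1, went the other way, with 10.1, 10.4 and 4.65 CPM in siNGFR, against 6.82, 4.91 and 4.68 CPM in siCont (0.60 ± 0.30 SE). FOXM1 had 124, 122 and 107 CPM in siNGFR, against 119, 92.1 and 124 CPM in siCont, with overlap and a log2 fold change of 0.07 ± 0.15 (SE).

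Without library 3, which left 2 siNGFR libraries against 3, edgeR called 10 of the 51 members lower and 2 higher in H1299. Of all 19434 genes tested it called 16.6% lower and 11.3% higher, so the members' count of lower calls, 10 of 51, was near the background. The log2 fold change was below 0 for 39 members (49.3% of all genes). In 25 members both remaining siNGFR libraries lay below all siCont libraries (28.1% of all genes), and in 4 above (27.6%). PTTG1 then fell by 1.66 on the log2 scale (SE 0.14, edgeR adjusted p = 6.4e-06), UBE2C by 0.87 and CCNB2, a cyclin of the B type, by 0.78. The other 7 called lower were CDCA3, CDCA8, HMMR, CCNA2, CENPA, NUF2 and AURKB, with log2 fold changes of -0.54 to -0.37. CDC25C rose by 0.89 ± 0.17 (SE) and ECT2 by 0.43 ± 0.13 (SE). The median of the members was -0.16, against 0.01 for all genes. Leaving out any one of the other 5 H1299 libraries in its place called no member, and 0 to 1 of all genes in each direction.

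None of the other regulators chosen by name passed the test in H1299. MKI67 had a log2 fold change of -0.24 ± 0.15, CDC20 -0.24 ± 0.16, BIRC5 -0.25 ± 0.12, CCNB1 -0.19 ± 0.14, TOP2A -0.22 ± 0.14, AURKB -0.22 ± 0.16, MYBL2 -0.11 ± 0.13 and CDK1 0.04 ± 0.13 (all SE). BIRC5 differed from the rest in that its groups did not overlap, with 81.8, 78.0 and 83.3 CPM in siNGFR, against 104, 94.5 and 90.3 CPM in siCont. Without library 3 AURKB passed, at -0.37 ± 0.13, and CDC20 (-0.36 ± 0.13), BIRC5 (-0.27 ± 0.11), MKI67 (-0.24 ± 0.14) and FOXM1 (0.13 ± 0.14, all SE) did not. By role, anaphase onset grouped with CDCA3 had the lowest median (-0.38, the value of CDCA3). Centromere and kinetochore followed (-0.34), and the 5 checkpoint genes had a median of 0.00. Without library 3 these medians were -0.54 (again the value of CDCA3), -0.28 and 0.08 in the same order. The chromosomal passenger complex, at -0.32, then stood below centromere and kinetochore.

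**Figure D3:**
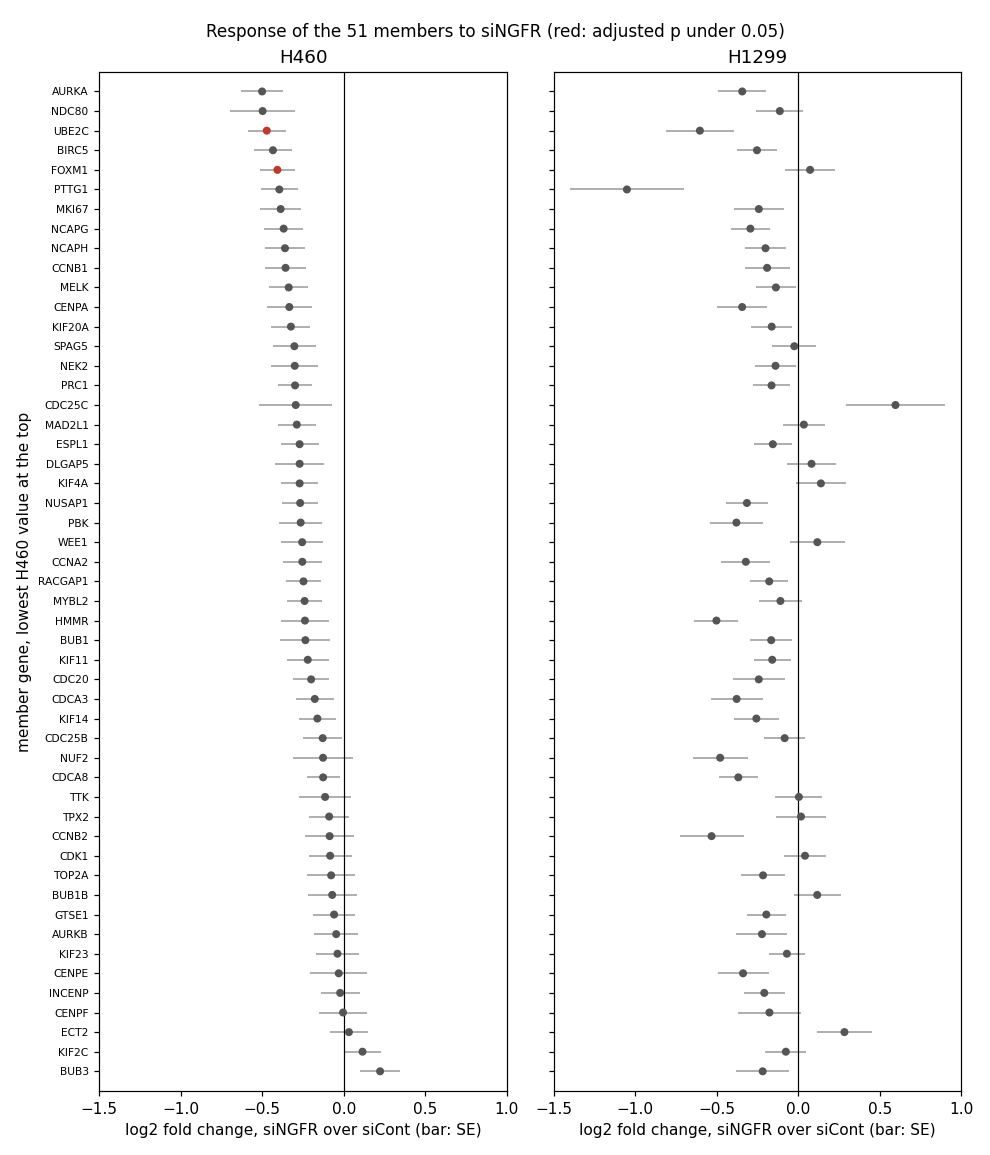
Log2 fold change of each gene, siNGFR over siCont, with bars of 1 SE, in H460 (left) and H1299 (right), in the order of the H460 values and with genes past the adjusted p of 0.05 in red. In H460 48 of 51 points lie below 0 and UBE2C and FOXM1 are red; in H1299 40 lie below 0, none is red and PTTG1 and CDC25C lie farthest out.

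Set side by side, 38 of the 51 genes had values below 0 in both lines, against 25.6% of the 17441 genes tested in both, and 11 had non-overlapping lower siNGFR groups in both, against 2.04%. Since 48 of the 51 were below 0 in H460 and 40 in H1299, a count near 38 follows from these numbers alone. Across the 51 genes the log2 fold changes in H460 and in H1299, which share no libraries, had a Spearman correlation of 0.11 (0.09 without H1299 siNGFR library 3), a description over genes that are not independent. The difference of responses, H460 minus H1299, was tested in one fit of the 12 libraries. By edgeR's quasi-likelihood test none of the 51 genes passed as higher (0.158% of all genes did) or as lower (0.269%). DESeq2 also called none (194 of 21583 genes higher and 265 lower). By edgeR 3 were lower at an unadjusted p under 0.05 (8.45% of all genes) and none higher (8.53%). FOXM1 had the smallest p, with a difference of -0.50 ± 0.19 (SE; edgeR adjusted p = 0.207), followed by CDC25C (-0.91 ± 0.41) and KIF4A (-0.43 ± 0.19). Without H1299 siNGFR library 3 FOXM1, CDC25C and KIF4A passed as lower (8.65% of all genes did) and PTTG1 as higher (9.33%), with adjusted p-values by edgeR of 0.0212 for FOXM1 and 0.000248 for PTTG1. A response past the threshold in H460 alone is thus not shown to differ between the lines for UBE2C, and for FOXM1 only without that library.

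Gene length was set beside these values. Over the 51 genes the Spearman correlation of summed exon length with the log2 fold change was 0.31 in H460 and 0.36 in H1299 (0.43 without siNGFR library 3), all a description of genes read in the same libraries. Over the genes tested within the members' range of lengths, 1233 to 12807 bases, it was -0.01 in H460 (14224 genes) and 0.24 in H1299 (13765 genes). The values did not run steadily with length. In H460 the shortest 17 genes, up to 3278 bases, had a median log2 fold change of -0.29, the middle 17 of -0.13 and the longest 17, from 4860 bases, of -0.22. In H1299 the medians of the same groups of genes were -0.32, -0.08 and -0.17, and -0.36, -0.09 and -0.13 without library 3. UBE2C and PTTG1 are the 2 shortest of the 51, at 1233 and 1535 bases. Against the siCont mean of the line, the correlation with length was 0.42 and 0.40 in H1299 siNGFR libraries 1 and 2 but -0.06 in library 3, and 0.34, 0.23 and 0.16 in H460 siNGFR libraries 4, 5 and 6. The part of length in the results was not tested.

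**Figure D4:**
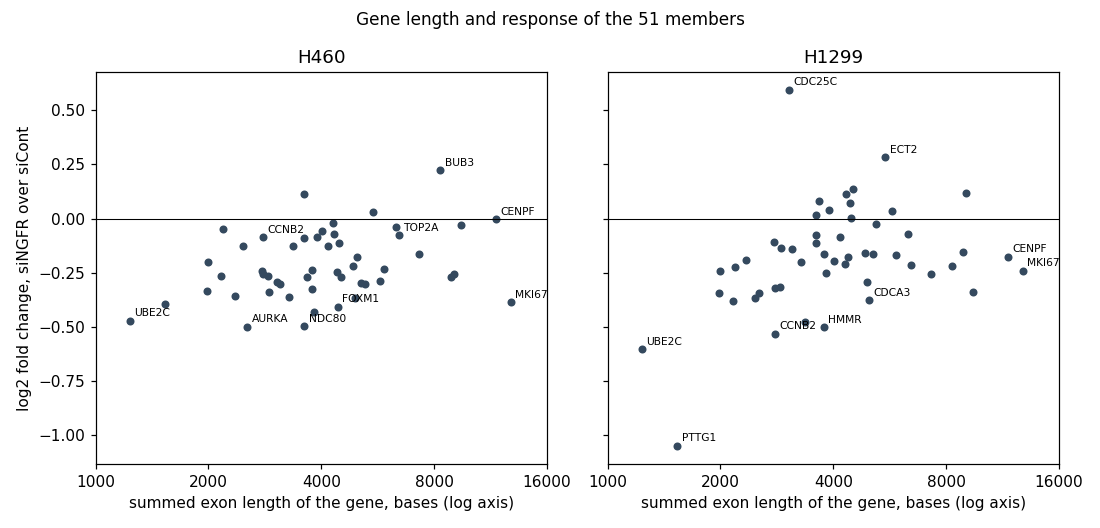
Log2 fold change of the 51 genes, siNGFR over siCont, against summed exon length in bases on a log axis, in H460 (left) and H1299 (right), 1 point per gene. UBE2C, the shortest, lies at -0.47 in H460 and -0.60 in H1299, and PTTG1 at -1.05 in H1299.

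Against the motifs shown first, the responses can be set out by promoter. In H460 the 35 genes with a CHR in a promoter had a median log2 fold change of -0.22 and the 6 without one, MELK among them, -0.25. In H1299 the medians were -0.19 with a CHR and -0.15 without one, and -0.17 and -0.16 in the same order without library 3. With 6 genes on one side, this is a description only.

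The members were also compared between the lines under siCont, H460 against H1299, a contrast in which the lines differ in far more than p53. By edgeR's quasi-likelihood test with Benjamini-Hochberg adjustment 27 of the 51 genes were lower in H460 (31.3% of 20105 genes tested were) and 7 were higher (31.9%). The median log2 fold change was -0.38, against -0.02 for all genes. In 29 genes all H460 libraries lay below all H1299 libraries (32.9% of all genes), and in 9 above (34.4%). Scaled by library size alone, where the median over all genes was 0.25, 16 were lower (22.4% of all genes) and 11 higher (40.1%).

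NDC80 differed most, with 3.09, 4.15 and 3.58 CPM in H460 siCont, against 25.2, 19.5 and 18.01 CPM in H1299 siCont (log2 fold change -2.54 ± 0.16 SE, edgeR adjusted p = 5.2e-09). CDCA3, a trigger of entry into mitosis through WEE1 degradation, had 25.6, 25.3 and 22.2 CPM in H460, against 80.9, 76.6 and 88.8 CPM in H1299 (-1.76 ± 0.11 SE). NCAPG had 13.5, 14.9 and 16.0 CPM in H460, against 50.6, 46.6 and 41.2 CPM in H1299 (-1.64 ± 0.12 SE), whereas its condensin partner NCAPH was higher, with 52.1, 43.5 and 47.3 CPM in H460, against 28.2, 28.7 and 24.8 CPM in H1299 (0.80 ± 0.11 SE). So the 2 condensin subunits went in opposite directions, with no overlap for either. TPX2, the activator of AURKA on the spindle, had a log2 fold change of -1.53 ± 0.12 (SE), KIF2C -1.39 ± 0.10 and the passenger subunit CDCA8 -0.93 ± 0.10.

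Higher in H460 were PBK, a mitotic kinase, with 22.5, 24.9 and 24.8 CPM in H460 siCont, against 10.7, 8.96 and 7.79 CPM in H1299 siCont (log2 fold change 1.38 ± 0.13 SE, edgeR adjusted p = 4.1e-07). MAD2L1, which holds CDC20 in check at unattached kinetochores, was higher by 0.74 ± 0.12, CDC25B by 0.68 ± 0.12, WEE1 by 0.64 ± 0.15, the spindle protein SPAG5 by 0.53 ± 0.11 and TOP2A by 0.30 ± 0.12 (all SE). FOXM1 had a log2 fold change of -0.67 ± 0.13 (SE), CDC20 -0.57 ± 0.12 and CCNB1 -0.48 ± 0.13, all lower in H460. MKI67, with 81.4, 88.5 and 93.3 CPM in H460 and 96.6, 72.9 and 98.3 CPM in H1299, overlapped between the lines, as did CDK1, AURKB and MYBL2, and BIRC5 missed the threshold at 0.23 ± 0.11 (SE; edgeR adjusted p = 0.0792). UBE2C, PTTG1, CDC20 and ESPL1, the genes of anaphase onset, were all lower in H460, at -0.70 to -0.42, as was CDCA3, grouped with them. Of the 6 midzone genes ECT2 alone passed.

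**Figure D5:**
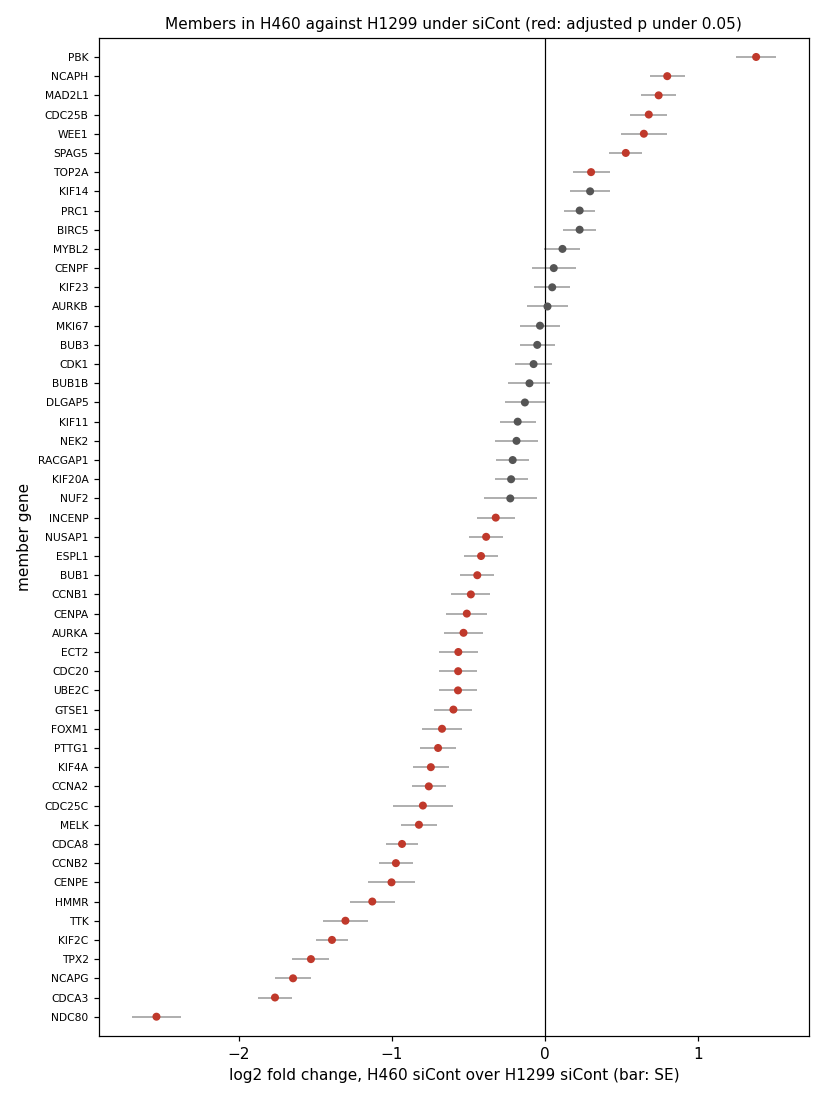
Log2 fold change of each gene between the lines under siCont, H460 over H1299, with bars of 1 SE and genes past the adjusted p of 0.05 in red. The 7 red points on the right run to PBK at 1.38, the 27 on the left to NDC80 at -2.54.

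Per kilobase of exon, CDC20 was the highest of the 51 genes in H1299 siCont, at 54.2 ± 7.85 CPM per kilobase, and the second in H460 siCont, at 36.8 ± 3.21 (SD, n = 3 each). In H460 siCont MYBL2 ranked first at 40.9 ± 3.32 CPM per kilobase, and its libraries, at 37.4 to 44.0, overlapped those of CDC20, at 34.0 to 40.3. PTTG1 ranked the third in H460 siCont, at 30.4 ± 2.97 CPM per kilobase, and the second in H1299 siCont, at 49.0 ± 5.18. In H1299 siNGFR it stood at 23.7 ± 14.2 CPM per kilobase, an SD set by library 3. NDC80 was at 0.707 ± 0.104 CPM per kilobase in H460 siNGFR and 1.00 ± 0.148 in H460 siCont.

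Genes of 3 other lists were read beside the members. Of 60 further mitotic genes in the table, 48 had log2 fold changes below 0 in H460 (49.3% of all genes), with a median of -0.13. By edgeR's test 2 fell (2.5% of all genes), CCNF and PKMYT1, both named after their values were seen. Cyclin F (CCNF), the F-box protein that limits several G2 proteins, had 9.55, 8.52 and 10.2 CPM in H460 siNGFR, against 21.2, 19.996 and 19.3 CPM in siCont (log2 fold change -1.08 ± 0.12 SE, edgeR adjusted p = 0.000526). In H1299 it had 20.7, 21.3 and 23.3 CPM in siNGFR, against 20.4, 18.9 and 25.8 CPM in siCont, and the difference of responses was -1.10 ± 0.18 (SE; edgeR adjusted p = 0.0192). PKMYT1, a kinase that inhibits CDK1 beside WEE1, had 17.6, 15.0 and 18.3 CPM in H460 siNGFR, against 31.6, 28.4 and 26.5 CPM in siCont (-0.75 ± 0.12 SE). In H1299 PKMYT1 had 11.4, 10.2 and 14.1 CPM in siNGFR, against 15.0, 16.6 and 15.8 CPM in siCont, with no overlap (-0.41 ± 0.15 SE; edgeR adjusted p = 0.261), and without library 3 it passed at -0.55 ± 0.13 (SE; edgeR adjusted p = 0.00752). In H1299 39 of the 60 genes were below 0 (49.9% of all genes), with a median of -0.10, and none passed. Without library 3 10 were lower (16.6% of all genes) and 3 higher (11.3%). Of 15 genes of the anaphase-promoting complex 2 fell in H460 (2.5% of all genes) and none passed in H1299. The 2 were ANAPC7 at -0.53 ± 0.11 and CDC16 at -0.72 ± 0.17 (SE). Of 15 genes of the DREAM and MuvB complexes with NF-Y, 1 rose in H460 (1.81% of all genes) and none passed in H1299. It was LIN37, a MuvB subunit, at 0.64 ± 0.15 (SE, edgeR adjusted p = 0.0294). Without library 3 in H1299, 2 of the 15 genes of the anaphase-promoting complex were lower and 1 higher. Of the 15 of DREAM and MuvB, 2 were higher and 0 lower, against the same 16.6% of all genes lower and 11.3% higher. Between the lines under siCont, 26 of the 60 mitotic genes were lower in H460 (31.3% of all genes) and 10 higher (31.9%). Of the anaphase-promoting complex 4 were lower and 8 higher.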

How the data were processed

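RNA from 12 libraries in 4 groups was depleted of ribosomal RNA, made into Ion Torrent libraries and sequenced. The authors deposited read counts per gene and library; STAR, Bowtie2 and hg38 are listed in the processing notes of the submitters. How reads were counted (program, strand setting, annotation) is not stated by the labels or the paper, so reads of a gene and of one overlapping it cannot be told apart. In GENCODE v29, 21 of the 51 members are overlapped by a gene on the opposite strand, and 11 have pseudogene copies of the same name, UBE2C among them. The authors' own comparisons by EBSeq (posterior probabilities and fold changes) were not used, nor were 24 columns of values per library, which are the RPKM columns and the counts repeated in the tables of those comparisons.

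The members and the lists beside them were chosen with earlier results of these data known. Genes were filtered with filterByExpr, scaled by TMM and tested with the two-sided quasi-likelihood test of edgeR 4.0.16 in R 4.3.3, within a line or, for the difference of responses, over the 12 libraries. P-values were adjusted over all genes tested by Benjamini-Hochberg, with a threshold of 0.05, and standard errors were derived from the F statistic. Deviations per library used a pseudocount of 0.5 CPM. The genes named were, per comparison, up to 6 members per direction with the lowest p among those called, the 3 with the largest change among members averaging at least 50 counts, 9 regulators chosen by name, and the checks, of which 1 is not reported here; others are given by range, or named as chosen later. Replicate libraries differed by 21.9 to 208 times the sampling variance per gene, so none was counted as a duplicate. The test was also run on simulated counts, drawn independently around a single mean per gene and group. That run does not cover a library that stands apart from its group. Alternatives were the RLE factors, library size alone, genes of at least 400 bases, no filter, at least 10 counts in every library, DESeq2 1.42.0, each library left out, a replicate block, one fit of 12 libraries and a shorter promoter window.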

Additional observations from a re-analysis of the deposited data

Results flagged for a closer look

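The responses of 2 genes outside the 51 members differed between the lines by the test of the difference itself (edgeR's quasi-likelihood test, H460 minus H1299). CCNF had a difference of -1.10 on the log2 scale (adjusted p = 0.0192), with all siNGFR libraries below all siCont libraries in H460 and overlapping groups in H1299, and lost the call in 5 of the fits that left out 1 library. CDKN1A had a difference of 2.40 (edgeR adjusted p = 0.00468), with a log2 fold change of 1.36 in H460 and -1.07 in H1299. The change in H1299 alone did not pass (edgeR adjusted p = 0.261). Without H1299 siNGFR library 3 it was -1.49 (edgeR adjusted p = 1.1e-05). No member differed by the test of the difference.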

How the results depend on the processing

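In H460, 2 members fell in the report (496 of all 19837 genes), 1 with RLE factors (463) and 35 with library size alone (4197). The count was 5 among genes of at least 400 bases (607 of 17896) and 6 with no filter (784 of 43365). It was 3 where every library had to hold at least 10 counts (493 of 17354) and 4 with DESeq2 (489 of 19837). It was 0 in one fit of 12 libraries (266 of 21583) and 0 to 7 with 1 library left out (111 to 680). In H1299 no filter called 1 member higher (574 of all 42733 genes) and 2 lower (1330). Leaving out 1 library called 0 to 2 higher and 0 to 10 lower. All those calls came without siNGFR library 3, where 11.3% of all genes were higher and 16.6% lower. For the difference of responses library size alone called 5 members lower (2865 of all 21583 genes) and no filter 1 (719 of 47803). Leaving out 1 library gave 0 to 1 higher and 0 to 3 lower. Those calls came without H1299 siNGFR library 3, where 9.33% of all genes were higher and 8.65% lower. Between the lines library size alone gave 11 higher (40.1% of all genes) and 16 lower (22.4%). Leaving out 1 library gave 6 to 8 higher (5895 to 6297 of all genes) and 26 to 28 lower (5679 to 6293). In the window of 150 bases before the start 52.9% of the members' promoters held a CHR, against 12.6% of all promoters. With the replicate number as a replicate block 0 members were lower in H460 (298 of all 19837 genes). The counts for H1299 and for the difference stayed at 0. The numbers did not pair the libraries (correlations of same-numbered libraries of 0.00, 0.08 and -0.02 in H460 and 0.36, -0.24 and 0.11 in H1299). No block was fitted between the lines, whose column numbers differ. Some small log2 fold changes, none of them called, changed sign. With library size alone, AURKB had -0.33, CDC20 -0.46 and TOP2A -0.35 in the difference of responses, CDK1 0.19 and MKI67 0.23 between the lines, and MYBL2 0.073 in H1299. With no filter AURKB had -0.0024, CDC20 -0.14 and TOP2A -0.043 in the difference. CDC20 had -0.011 there with RLE factors and -0.011 with DESeq2, and AURKB -0.0054 between the lines among genes of at least 400 bases. CCNF in H1299, at 0.00 in the report, had -0.0020 with RLE factors, -0.019 among genes of at least 400 bases, -0.015 with at least 10 counts in every library and -0.0018 with DESeq2. With 1 library left out, the range was -0.15 to 0.11 for AURKB and -0.17 to 0.030 for CDK1 in H460, -0.24 to 0.052 for TOP2A in H460, -0.044 to 0.10 for CDK1, -0.049 to 0.15 for FOXM1 and -0.088 to 0.14 for CCNF in H1299, -0.17 to 0.090 for CDC20 and -0.062 to 0.18 for TOP2A in the difference, and -0.13 to 0.14 for AURKB, -0.18 to 0.021 for CDK1 and -0.19 to 0.032 for MKI67 between the lines. The smallest change called among the members in H460 was -0.41 (FOXM1), larger in size than their median of -0.25, and NGFR, with 0 to 6 counts per library, gave no fold.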
